A study of Mus musculus with 10 samples.

Results

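A mouse tumor line was compared with cultured bone marrow stromal cells of the kind that it was derived from, across 21528 autosomal genes measured on oligonucleotide arrays. The comparison rests on 4 of the series' 10 arrays, chosen by their titles: 2 of the tumor line and 2 of primed null BM-MSC (bone marrow mesenchymal stem cells). Both groups are labelled as lacking Rb1 and Trp53 and carry the FVB background. By the protocol, marrow cells with loxP-flanked alleles of both genes spent 10 days in osteogenic medium and were then infected with an adenovirus expressing Cre from the CMV promoter. Source labels speak of double-null mice instead. The tumor line came from a tumor of such cells under the skin of NSG mice, which are immunodeficient, and is labelled tumorigenic, as the marrow culture is. All cultures were used between passages 2 and 5 in growth medium, and duplicates are independent cultures. The other 6 arrays are duplicates of wild-type BM-MSC, wild-type ASC (the fat-derived counterpart of BM-MSC) and primed null ASC, and are used here for the spread between duplicates and for levels set side by side. Titles give 10 days of osteogenic priming for both null groups and the tumor line, and none for the wild-type groups. Wherever wild-type levels stand beside those of the other groups, priming and genotype cannot be told apart. The duplicates of the tumor line are cultures of the same line, so that tests measure the spread between cultures and not between tumors.

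Mesenchymal stem cells are stromal cells that can form bone, cartilage and fat. On the way to bone, the transcription factors Runx2 and Sp7 precede alkaline phosphatase and then the matrix proteins bone sialoprotein and osteocalcin. The retinoblastoma protein, product of Rb1, holds E2F factors inactive and so restrains DNA replication genes, and p53, product of Trp53, drives cell cycle arrest and cell death genes after damage. Loss of both is a common feature of osteosarcoma, a bone-forming cancer of mesenchymal cells.

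Of all spots, 53.3% to 58.4% were well above background on each array, and duplicates correlated at r = 0.994 to 0.996 across genes. A level below is the log2 of a gene's signal over the 75th percentile of its array, and a change is the tumor line minus primed null BM-MSC on that scale, with its standard error (SE). Genes called dim were not well above background on either array of a group. Every one of the 24 measured MSC surface and niche markers was bright, that is above background on both arrays, in each of the 2 groups. So were 17862 of all 21528 autosomal genes tested, and a gene was tested only if bright in some group. The 2 tumor line arrays shared a slide of their own and a scan of their own, while the other 8 shared another slide, so slide and group cannot be told apart in any result given here.

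The targeted genes were read first. Rb1 (probe at chr14:73595408-73595467 in mm9) lay at 1.90 and 1.92 in wild-type BM-MSC, at 0.65 and 0.54 in primed null BM-MSC and at -1.98 and -1.97 in the tumor line. The null marrow cells thus stood below wild-type marrow cells and far above the tumor line. In primed null ASC, Rb1 lay at -1.91 and -1.97, close to the tumor line. Trp53 (chr11:69404204-69404263) lay at 0.83 and 0.71 in wild-type BM-MSC, at -0.89 and -1.11 in primed null BM-MSC, and was dim in the tumor line. Against the null marrow cells Rb1 changed by -2.57 (SE 0.05, adjusted p = 1.39e-07) and Trp53 was at least 23.1-fold lower (adjusted p = 5.95e-07). The labels do not say if either probe lies inside the deleted exons.

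Some readings set the null marrow culture apart from the tumor line in genes outside the labelled deletions. The Y-linked gene Ddx3y, outside the autosomal comparison, lay at 2.00 and 1.89 in primed null BM-MSC and was dim in the tumor line, while the 6 arrays of the other groups were bright for it. Another Y-linked gene, Eif2s3y, lay at -0.32 and -0.36 in the null marrow cells and was also dim in the tumor line. The X-linked RNA gene Xist was low in both groups, with every probe below its level on the other 6 arrays. By 1 probe Xist lay at -1.63 and -1.66 in the tumor line, at -4.06 and -3.81 in null BM-MSC and between 1.96 and 4.47 elsewhere. The tumor suppressors Cdkn2a and Cdkn2b were lowest in the null marrow cells among all 5 groups and highest in the tumor line, as described below. The labels do not state that the tumor line came from the very culture measured here, so each change given is between 2 cultures of the same labelled origin. The part of these differences in the other results was not tested.

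The 2 groups differed across most of the measured genome. With limma, 15000 of the 21528 autosomal genes (69.7%) passed an adjusted p of 0.05, 7356 of them (34.2%) higher and 7644 (35.5%) lower in the tumor line. Of these, 6248 differed by at least 2-fold, 3038 upwards and 3210 downwards, and 703 by at least 4 on the log2 scale. The count of 6248 was 3860 with normexp background correction and 4125 over genes above background on all 10 arrays. The median size of a change was 0.61 and the median SE 0.09. A count of members in a gene group is therefore read against these shares, and its median change against the median of all autosomal genes, -0.06. Within the 21528 genes tested, and overlapping the calls, 874 were bright in the tumor line and dim in null BM-MSC, and 679 the other way round. Where only 1 of a group's 2 arrays was above background, the change rests partly on a signal at background level. Of the genes named below this held in null BM-MSC for Acan, Brca1, Prss12, Acsl6, Mmp9, Itgb8, Dkk2 and Hoxb4, and in the tumor line for Entpd3, Cyp1b1, Aldh1a2, Hp and Ptprc.

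**Figure D1:**
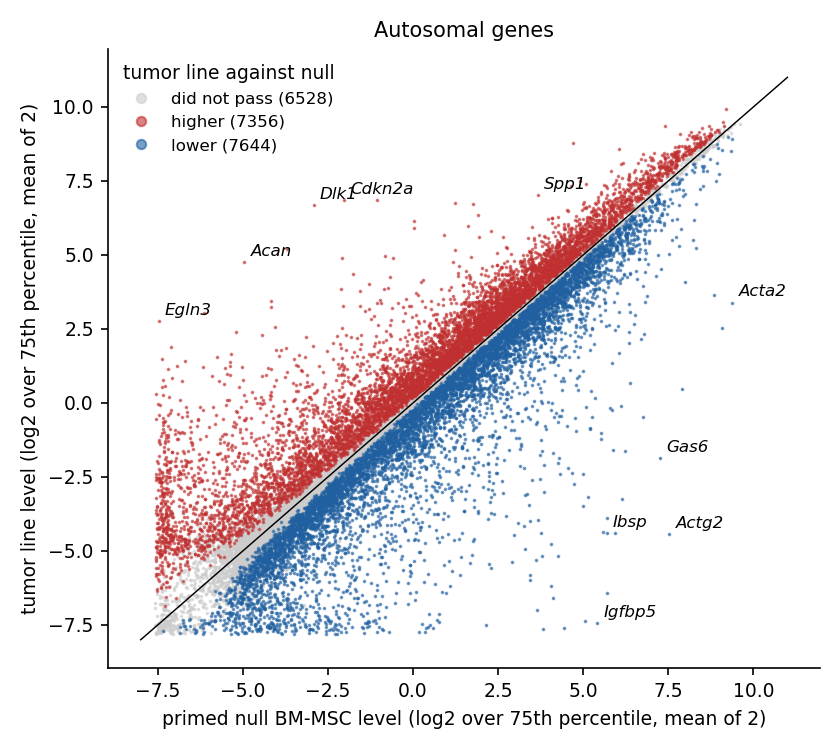
Mean level of each autosomal gene in primed null BM-MSC (x axis) and the tumor line (y axis), both as log2 over the array's 75th percentile and as means of 2 arrays, coloured by the call. The black line marks equal levels. Of 21528 genes, 7356 were higher and 7644 lower, and Actg2, Igfbp5, Acan and Egln3 lie far from the line.

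Many genes bright in the tumor line and dim in null BM-MSC were also bright in other groups. Of these 874 genes, 295 (33.8%) were bright on both arrays of wild-type ASC, 250 (28.6%) on both of primed null ASC and 170 (19.5%) on both of wild-type BM-MSC. No other group showed 282 of them, and these were tested only because they were bright in the tumor line. Of the 679 genes dim in the tumor line and bright in null BM-MSC, 501 (73.8%) were bright in wild-type BM-MSC, 349 (51.4%) in wild-type ASC and 288 (42.4%) in primed null ASC. Among the 679, no array of these other groups was above background for 40. Over all 21528 autosomal genes tested, 88.1% to 90.9% were bright in these groups, and for 355 none of their arrays was above background.

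Promoters are shown for genes of 3 lists, of DNA replication, smooth muscle and bone matrix, to put sequence beside the values that follow. Each is the 250 bases before a gene's start, 5′ to 3′ on the gene's strand, from RefSeq on GRCm38.p6, with a motif match in capitals. The first pair belongs to DNA replication genes that rose, and the capitals mark TTTCCCGC or TTTGGCGC on either strand, forms of the E2F site. Among 32851 promoters in the table, 1.30% hold such a match in this window, and so do 7 of the 38 measured replication genes found in the table, of which 5 were higher, 1 lower and 1 not called.
Cdc6, chr11:98907901-98908150, plus strand: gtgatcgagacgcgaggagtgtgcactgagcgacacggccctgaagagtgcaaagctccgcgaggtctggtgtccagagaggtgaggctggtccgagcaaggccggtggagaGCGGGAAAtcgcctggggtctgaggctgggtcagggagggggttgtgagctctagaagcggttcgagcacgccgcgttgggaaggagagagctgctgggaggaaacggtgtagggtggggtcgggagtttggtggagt
Mcm6, chr1:128359706-128359955, minus strand: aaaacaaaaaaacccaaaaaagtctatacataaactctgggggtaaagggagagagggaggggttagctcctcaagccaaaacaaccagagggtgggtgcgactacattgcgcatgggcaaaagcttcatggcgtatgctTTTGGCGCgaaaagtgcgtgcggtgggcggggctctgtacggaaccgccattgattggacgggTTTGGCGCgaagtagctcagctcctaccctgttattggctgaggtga
The next pair belongs to genes of the smooth muscle list that fell, and for Cnn2 only the call is given. The capitals mark the CArG box, the site of serum response factor, whose pattern is the same on both strands. It stands in 1.47% of all promoters and in 2 of the 12 measured smooth muscle genes in the table, both lower.
Myl9, chr2:156775214-156775463, plus strand: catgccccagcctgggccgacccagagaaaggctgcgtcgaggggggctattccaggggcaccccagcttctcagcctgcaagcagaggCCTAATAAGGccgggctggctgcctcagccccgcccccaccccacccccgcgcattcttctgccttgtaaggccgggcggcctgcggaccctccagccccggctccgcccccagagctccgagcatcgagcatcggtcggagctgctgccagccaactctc
Cnn2, chr10:79988350-79988599, plus strand: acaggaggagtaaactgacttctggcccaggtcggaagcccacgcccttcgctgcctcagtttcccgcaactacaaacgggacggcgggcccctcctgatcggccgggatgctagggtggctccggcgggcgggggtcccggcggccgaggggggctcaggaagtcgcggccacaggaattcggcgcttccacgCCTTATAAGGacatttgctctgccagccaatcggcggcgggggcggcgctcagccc
The last pair belongs to bone matrix genes, of which Bglap fell and Spp1 rose. The capitals mark TGTGGT on either strand, a core of the Runx site, present in 14.05% of all promoters and in 6 of the 17 measured bone matrix genes in the table, of which 2 were higher and 3 lower.
Bglap, chr3:88384467-88384716, minus strand: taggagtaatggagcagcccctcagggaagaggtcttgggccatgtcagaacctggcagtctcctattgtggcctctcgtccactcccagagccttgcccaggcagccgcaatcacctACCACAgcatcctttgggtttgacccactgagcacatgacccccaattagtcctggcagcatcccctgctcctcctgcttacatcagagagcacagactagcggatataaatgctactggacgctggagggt
Spp1, chr5:104434861-104435110, plus strand: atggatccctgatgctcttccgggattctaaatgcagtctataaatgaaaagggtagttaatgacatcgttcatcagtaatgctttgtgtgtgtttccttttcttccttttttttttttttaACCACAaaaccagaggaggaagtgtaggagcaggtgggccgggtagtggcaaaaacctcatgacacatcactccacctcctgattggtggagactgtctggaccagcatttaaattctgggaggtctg
These 6 genes were chosen for their matches after the values were known. The shares over all count each of 32851 promoters of 27025 genes, whereas a listed gene counts once if any of its promoters matches. The 2 kinds of share are therefore not like for like. A match is a run of letters and is not known to be bound. For Spp1 the table holds another start with no match, and Actg2, Tagln and Bglap2 were not found there.

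Cell division genes were higher in the tumor line. In the list of E2F targets and DNA replication genes, 37 of 46 measured members rose and 2 fell, with a median change of 0.72. Pold1, the catalytic subunit of DNA polymerase delta, lay at 2.77 and 2.92 in the null cells and at 4.48 and 4.46 in the tumor line, a change of 1.62 (SE 0.06, adjusted p = 1.9e-06). The changes of E2f8, an E2F repressor, of Pola2, a subunit of the primase complex, and of Pole, the leading strand polymerase, were 1.5, 1.47 and 1.46. Of the genes whose promoters are printed, Cdc6, which loads the replicative helicase, changed by 0.80 and Mcm6, a subunit of that helicase, by 0.39. Against this direction, the sliding clamp Pcna fell by 0.64 and the repressor E2f7 fell by 0.60. E2f1 itself changed by -0.12 and did not pass.

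Mitosis genes followed the same direction, with 28 of 33 higher, 1 lower and a median change of 0.74. Cenpe, the kinetochore motor, lay at 4.01 and 4.17 in the null cells and at 6.33 and 6.17 in the tumor line (change 2.16, SE 0.10, adjusted p = 3.1e-06). Top2a, which untangles chromosomes, Kif2c, which depolymerises microtubules, and Cenpa, the centromeric histone, changed by 1.98, 1.85 and 1.79. The member that fell, Cdk1, had 2 probes that disagreed, at -0.85 and 0.45. In the DNA repair list 26 of 36 rose and 4 fell, with a median of 0.72. Brca1 changed by 1.69 and the Fanconi proteins Fancd2 and Fanci by 1.62 and 1.52, whereas the damage-marked histone H2ax fell by 1.66. Over the groups, Mki67, the proliferation antigen, lay at 3.29 and 3.4 in wild-type ASC, 3.52 and 3.43 in wild-type BM-MSC, 4.03 and 4.13 in null BM-MSC, 4.87 and 4.85 in null ASC and 5.34 and 5.36 in the tumor line.

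The largest rises included the pair of cyclin-dependent kinase inhibitors at the Cdkn2a locus. Cdkn2b, which encodes p15 (probe at chr4:88952276-88952335), lay at -3.71 and -3.68 in null BM-MSC and at 5.21 and 5.22 in the tumor line. That is a change of 8.91 (SE 0.04, 480-fold, adjusted p = 3.1e-09). Cdkn2a, which encodes p16 and p19ARF (chr4:88920405-88920464), lay at -2.26 and -1.82 against 6.94 and 6.77, a change of 8.89 (SE 0.15, adjusted p = 7.8e-08). The other probe of each gene was dim among null marrow cells and bright in the tumor line. In the 3 other groups Cdkn2a had group means from 3.12 to 5.11 and Cdkn2b from 2.36 to 2.90, so null BM-MSC stood apart from every other group at both genes. The neighbouring gene Mtap, whose product recycles methionine, lay at 2.22 and 2.46 in the tumor line and 0.74 and 0.54 in the null marrow cells. Further along, Klhl9 lay at 3.71 and 3.73 in the tumor line and 3.61 and 3.51 in the null marrow cells. The probe for Focad lay at 1.68 and 1.67 in the tumor line and 0.73 and 0.69 in the null marrow cells.

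Across the list of CDK inhibitors and D cyclins, 7 of 12 rose and 3 fell. Cdkn1c, the imprinted inhibitor p57, changed by 2.33 and Ccnd1, cyclin D1, by 0.90. Cdkn1a, the p53-induced inhibitor p21, lay at 4.02 and 3.91 in null BM-MSC and at 2.13 and 2.21 in the tumor line, a change of -1.79 (SE 0.08, adjusted p = 3.4e-06), near the 1.97 of null ASC and below the 5.31 of wild-type BM-MSC. Its 3 probes all fell, from -6.68 to -0.84. Of the 27 p53 targets measured, 14 fell and 8 rose, with a median of -0.42. Ephx1, an epoxide hydrolase, changed by -3.40, Phlda3, an Akt inhibitor, by -1.88 and the sestrin Sesn1 by -1.43. In the other direction, Gadd45a changed by 1.66, and Pmaip1, which encodes the death factor Noxa, by 1.63. Of the BCL2 family, 8 of 14 fell and 4 rose: Bcl2, the founding survival gene, changed by -2.78, Bid by -1.58, Bok by -1.5 and the BH3-only gene Bik, dim in the null cells, was at least 1.08-fold higher.

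**Figure D2:**
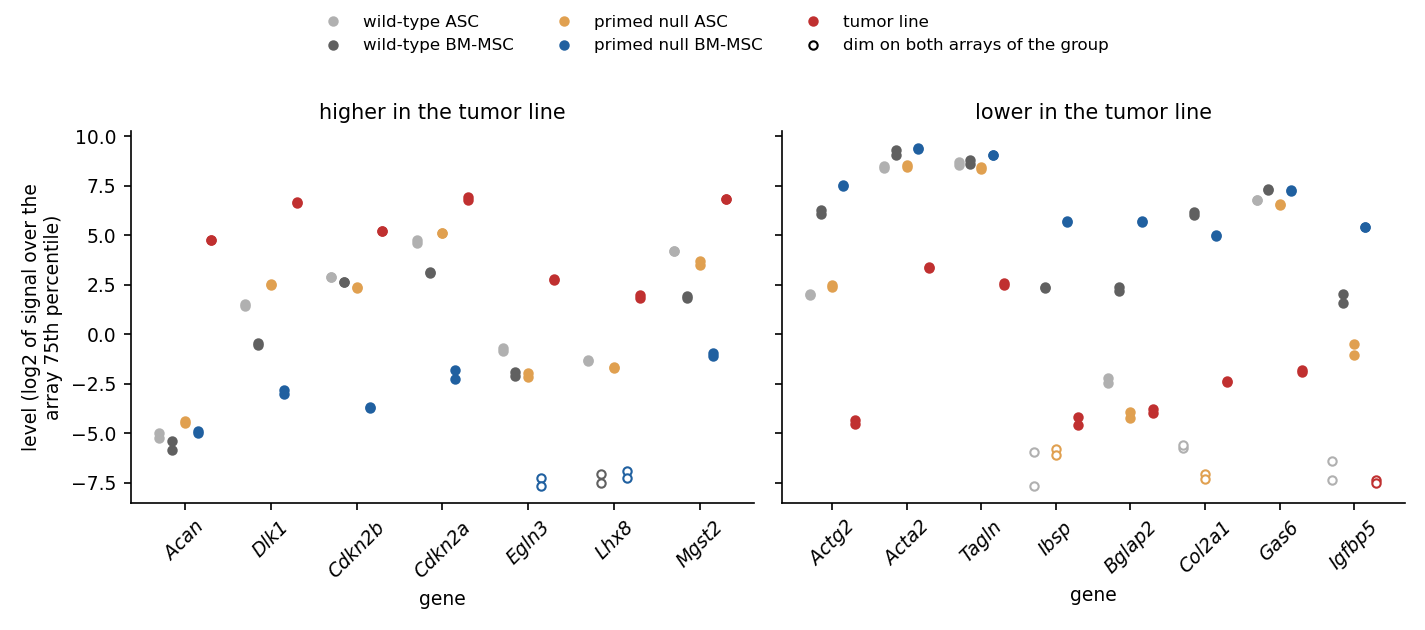
Level of selected genes on each of the 10 arrays (log2 over the array's 75th percentile), by group; open circles mark groups in which both arrays were dim. Genes in the left panel were higher in the tumor line than in null BM-MSC, with Acan at 4.77 and 4.76 and no other array above -4.37, and genes in the right panel were lower.

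The remaining large rises shared no list. Acan, which encodes the cartilage proteoglycan aggrecan, was low in the 4 other groups, with group means from -5.62 to -4.42, and lay at 4.77 and 4.76 in the tumor line (change 9.72, SE 0.16, 844-fold, adjusted p = 7.3e-08). Dlk1, an imprinted inhibitor of adipocyte formation, lay at -3.0 and -2.84 against 6.66 and 6.70 (change 9.60, SE 0.07). Mgst2, a microsomal glutathione transferase, changed by 7.89, the uridine phosphorylase Upp1 by 7.62, the serine protease Prss12 by 7.61, the transcription factor Batf3 by 7.41, the acyl-CoA synthetase Acsl6 by 6.99 and the placental lactogen relative Prl2c5 by 6.99. For Acan, Prss12 and Acsl6 only 1 of the 2 null arrays was above background. For Upp1 the other probe gave 4.54, and Prl2c5 belongs to a family of near-identical genes that a probe may not separate. Mgst2 was bright in all groups, and null BM-MSC was the lowest of them, at -1.12 and -0.97.

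Among genes dim in null BM-MSC, the highest bounds belonged to Pla2g7, a lipoprotein-associated phospholipase, at least 317-fold higher. Egln3, an oxygen-sensing prolyl hydroxylase, was at least 260-fold higher, the LIM homeobox gene Lhx8 at least 144-fold, the vesicle protein gene Ptprn at least 112-fold, the death receptor relative Tnfrsf26 at least 103-fold and the RNA-binding protein gene Igf2bp1 at least 99.7-fold. All of these were bright in both ASC groups, and in wild-type BM-MSC only Pla2g7 and Lhx8 were dim.

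The largest measured fall was that of Actg2, the enteric smooth muscle actin. It lay at 7.55 and 7.51 in null BM-MSC and at -4.36 and -4.52 in the tumor line. The change of -11.97 (SE 0.08, adjusted p = 6.7e-09) is a 4019-fold difference. On the tumor line arrays the lowest signals well above background were -5.40 and -5.66, so this fold rests on a level not far above that floor. Of the 16 smooth muscle genes measured, 14 fell and none rose, with a median change of -2.40. Cnn1, which encodes calponin, changed by -7.25, Tagln (transgelin) by -6.52, Acta2 (smooth muscle alpha-actin) by -5.99 and Myl9, the regulatory light chain whose promoter is printed, by -5.17. Acta2 lay between 8.41 and 9.41 on the 8 arrays of the other groups and at 3.36 and 3.41 in the tumor line, so the tumor line stood apart from every other group. Tagln lay between 8.37 and 9.09 on those 8 arrays and at 2.58 and 2.50 in the tumor line. The members that did not pass were Myocd, the cardiac and smooth muscle coactivator (change -0.56), and Casq2, dim in both groups.

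Bone matrix and mineralization genes fell in 14 of 21 cases and rose in 4, with a median of -1.30. Ibsp, bone sialoprotein, lay at 5.71 and 5.67 in the null cells and at -4.61 and -4.21 in the tumor line (change -10.09, SE 0.50, adjusted p = 5.1e-06). Wild-type BM-MSC lay between these levels at 2.35 and 2.38, and both ASC groups were dim. The osteocalcin genes Bglap2 and Bglap3, near-identical copies that probes may not separate, changed by -9.57 and -9.37, and Bglap was at least 499-fold lower, with its other probe at -3.36. Alpl, alkaline phosphatase, was at least 186-fold lower. Among the type I collagen genes, Col1a1 fell by 0.58, and Col1a2, with a change of -0.21, did not pass. In the opposite direction, Spp1, which encodes osteopontin, lay at 3.70 and 3.63 in the null cells and at 7.0 and 7.07 in the tumor line, a change of 3.37 (SE 0.24, adjusted p = 2.8e-05). The pyrophosphate genes Enpp1 and Ank changed by 2.29 and 1.31, and osteoprotegerin, Tnfrsf11b, by 1.47.

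Osteoblast transcription factors divided, with 8 of 20 higher (40%) and 9 lower (45%), beside 34.2% and 35.5% of all autosomal genes. Sp7, or osterix, lay at 1.38 and 1.39 in the null cells and was dim in the tumor line, at least 111-fold lower (adjusted p = 6.4e-06). The homeobox gene Dlx5 changed by -5.29, Msx1 by -2.35 and the vitamin D receptor Vdr by -1.74. Runx2 changed by -0.82. On the other side, the AP-1 factor Fosl1 changed by 3.81, Id4 by 3.24, the osteoblast-restraining factor Twist2 by 3.0 and Msx2 by 2.65.

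Cartilage genes did not follow Acan. Of 18 measured, 13 fell and 4 rose, with a median of -1.38 as fitted and -1.0 with dim members at their bounds. Col2a1, the type II collagen gene, lay at 5.02 and 4.98 in null BM-MSC and at -2.44 and -2.36 in the tumor line (change -7.40, SE 0.10, adjusted p = 4e-08). The cartilage matrix gene Comp changed by -5.26, Matn4 by -5.10 and Matn3 was at least 10.3-fold lower. The link protein gene Hapln1, whose product ties aggrecan to hyaluronan, changed by 2.33, and Sox9, the cartilage master factor, by 1.44.

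Fat lineage genes rose in 11 of 19 cases and fell in 4, with a median of 0.41. The fatty acid carrier Fabp4 changed by 2.40, the lipid droplet protein Plin2 by 1.44 and Cebpd by 1.21. The central adipocyte factor Pparg moved the other way, from 2.50 and 2.47 to -1.20 and -1.14 (change -3.65, SE 0.07, adjusted p = 1.2e-07), as did Ebf1 at -2.12 and Cebpa at -1.29. Pparg and Ebf1 in the tumor line lay closer to the ASC groups than to wild-type BM-MSC, at 2.77 and 2.50.

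**Figure D3:**
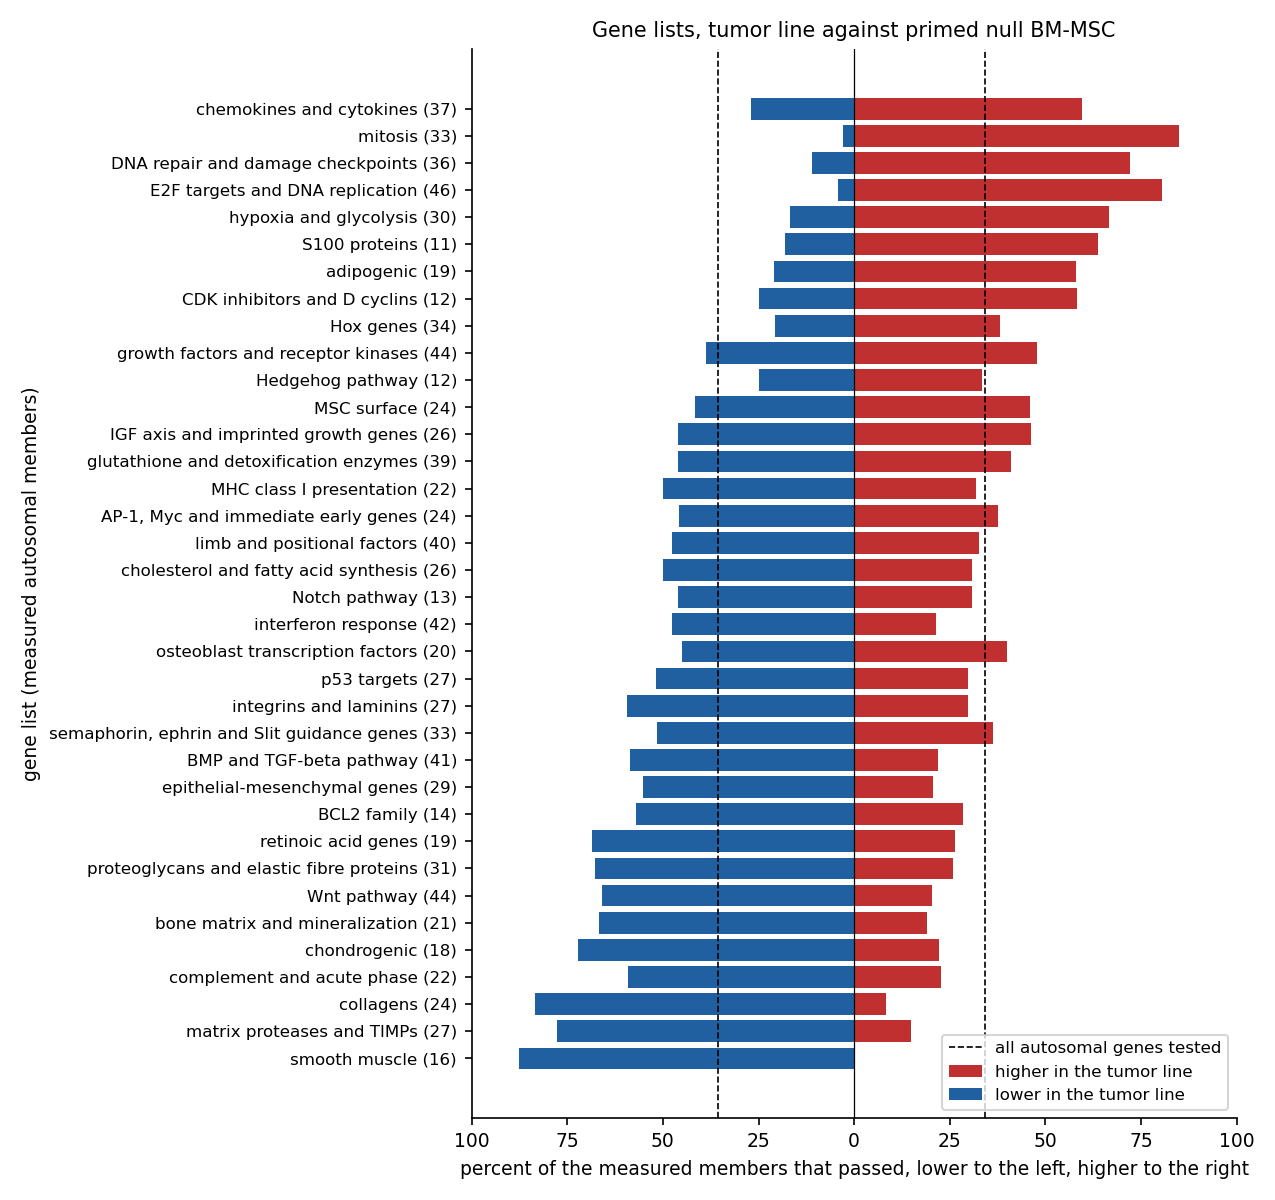
Share of the measured autosomal members of each gene list that were higher (right, red) or lower (left, blue) in the tumor line than in primed null BM-MSC, in percent, ordered by median change; dashed lines mark the shares over all autosomal genes tested, 34.2% and 35.5%. The mitosis and replication lists extend to the right and the smooth muscle, protease and collagen lists to the left.

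Collagen genes were mostly lower. Of 24 collagen genes 20 fell and 2 rose, with a median of -1.92. Col8a2, a basement membrane collagen of the cornea, changed by -8.34, Col12a1, a fibril-associated collagen, by -5.48 and Col4a1, of basement membranes, by -3.95, while Col26a1 was at least 15.3-fold lower. The exceptions were Col18a1, the source of endostatin, at 2.49 and Col16a1 at 1.04. Of 31 proteoglycan and elastic fibre genes 21 fell and 8 rose, with a median of -1.22. The microfibril gene Mfap5 lay at 4.72 and 4.63 in the null cells and at -2.38 on both tumor line arrays, a change of -7.05. Asporin, Aspn, changed by -6.04 and fibromodulin, Fmod, by -4.64. Latent TGF-beta binding protein 4, Ltbp4, changed by 5.52 in the other direction, decorin, Dcn, by 2.53 and lumican, Lum, by 2.47. Dcn lay at 8.56 and 8.58 in the tumor line, beside 8.47 and 8.43 in wild-type ASC.

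Matrix proteases and their inhibitors fell in 21 of 27 cases and rose in 4, with a median of -1.94. The collagenase Mmp13 changed by -8.48 and the aggrecanase Adamts5 by -3.67, and the stromelysin Mmp3 was at least 8.33-fold lower. The gelatinase Mmp9 rose from -5.44 and -5.34 to 1.22 and 1.29, a change of 6.64 (SE 0.20, adjusted p = 6.3e-07), with 1 of the 2 null arrays above background. The urokinase receptor Plaur changed by 1.43 and cathepsin L, Ctsl, by 0.88. Among integrins and laminins 16 of 27 fell and 8 rose: the collagen-binding integrins Itga11, Itga1 and Itga10 changed by -3.92, -2.88 and -2.69, and Lama5 by -3.67. The laminin-binding integrins Itga3 and Itga6 changed by 3.52 and 1.93, and Itgb8 by 3.41. The other Itga6 probe gave 0.56.

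Signalling genes moved unevenly. In the Wnt list 29 of 44 fell and 9 rose, with a median of -1.25 as fitted and -1.09 with dim members at their bounds. The R-spondin receptor Lgr5 lay at 3.31 and 3.28 in the null cells and at -4.52 and -5.36 in the tumor line (change -8.24, SE 0.32). Its ligand Rspo2 changed by -7.63 and the secreted antagonist Sfrp1 by -6.16, and Wif1, another antagonist, was at least 99.2-fold lower. Among those that rose, the nuclear effector Lef1 was at least 17.6-fold higher, the antagonist Dkk2 changed by 4.40, the ligand Rspo1 by 3.87 and Wnt5a by 1.64. The R-spondins and the secreted antagonists each held members of both directions.

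In the BMP and TGF-beta list 24 of 41 fell and 9 rose, with a median of -0.55. The ligand Bmp4 lay at 6.07 and 6.12 in null BM-MSC and at -0.09 and -0.12 in the tumor line, a change of -6.20 (SE 0.10, adjusted p = 5.7e-08). Bmp6 changed by -4.28, the inhibitory Smad6 by -4.76 and the activin antagonist Fst by -3.60. The receptor Bmpr1b was at least 8.44-fold higher, the TGF-beta-induced matrix protein Tgfbi changed by 2.60 and the stress cytokine Gdf15 by 2.09. Of 12 Hedgehog genes 4 rose (33.3%) and 3 fell (25%), beside 34.2% and 35.5% of all autosomal genes. Those that rose include the effectors Gli2 at 3.25 and Gli1 at 2.70, and those that fell the co-receptors Boc at -3.39 and Cdon at -1.95. Of 13 Notch genes 6 fell and 4 rose: the ligand Jag1 changed by -2.75 and the modifier Lfng by -2.52, and the receptor Notch4 by 5.28.

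Of 44 growth factor and receptor kinase genes 21 rose and 17 fell, with a median of 0.16. The secreted ligand Gas6, which binds the TAM receptor kinases, lay at 7.30 and 7.24 in null BM-MSC and between 6.53 and 7.34 on the 8 arrays other than those of the tumor line, and at -1.90 and -1.81 in the tumor line. Its change was -9.13 (SE 0.05, adjusted p = 5.9e-09). The receptor Fgfr3 changed by -7.43 and the ligand Fgf18 by -4.24, with the other Fgfr3 probe at -3.78. The receptor Met changed by 3.63, the lymphatic factor Vegfc by 3.53, and the EGF receptor ligand Areg, dim in the null cells, was at least 7.76-fold higher.

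In the list of the IGF axis and imprinted growth genes 12 of 26 rose and 12 fell, with some of the widest gaps of the comparison. Igfbp5, an IGF-binding protein, lay at 5.40 and 5.42 in null BM-MSC and was dim in the tumor line, at least 1962-fold lower. The paternally expressed Mest was at least 993-fold lower, the maternally expressed RNA gene H19 changed by -7.43 and Sgce by -6.73. The 6 probes of H19 gave changes from -8.03 to -2.69. Besides Dlk1, its imprinted neighbour Meg3 lay at 1.60 and 1.64 in null BM-MSC and at 6.00 and 5.96 in the tumor line, a change of 4.36 (SE 0.17), and Igfbp3 changed by 2.50.

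Other large falls had no common list. S100b, a calcium-binding protein of glia and cartilage, changed by -10.32, from 5.95 and 5.91. Ptgis, prostacyclin synthase, changed by -9.96 by its brighter probe and by -1.18 by another. The monoacylglycerol lipase Mgll changed by -9.44, the ectonucleotidase Entpd3 by -8.95 and the cytochrome Cyp1b1 by -8.94, the last pair with 1 of 2 tumor line arrays above background. Of the genes dim in the tumor line, the protease inhibitor relative Ctla2a was at least 2390-fold lower, the chemokine scavenger Ackr4 at least 1545-fold, Slurp1 at least 796-fold and Ctla2b, a close relative of Ctla2a, at least 766-fold. Ctla2a lay between 5.54 and 8.86 on the 8 arrays of the other groups.

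Metabolic and stress genes differed by list. Of 30 hypoxia and glycolysis genes 20 rose and 5 fell, with a median of 0.61. After Egln3, the largest were Ankrd37 at 2.94, the mitophagy gene Bnip3 at 2.27 and the angiogenic factor Vegfa at 2.05, while Car9, a carbonic anhydrase often used as a hypoxia marker, changed by -1.92. Of 26 cholesterol and fatty acid synthesis genes 13 fell and 8 rose, with the mevalonate enzymes Mvd and Mvk at -1.27 and -1.11 and Dhcr7 at -1.23, against the fatty acid enzymes Acaca and Acly at 0.86 and 0.63. Detoxification genes were split, 16 of 39 higher (41.0%) and 18 lower (46.2%), beside 34.2% and 35.5% of all autosomal genes. Mgst1 changed by -7.13 and Mgst2 by 7.89, and the drug efflux pumps Abcb1a and Abcb1b by 3.19 and 2.25. Retinoic acid genes fell in 13 of 19 cases, with the synthetic enzyme Aldh1a3 at least 22-fold lower and Aldh1a2 at -3.11, while the binding protein Crabp1 rose from 1.71 and 1.84 to 6.73 and 6.70 (change 4.94, SE 0.20).

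Immune genes also divided. Of 42 interferon response genes 20 fell and 9 rose, with a median of -0.30. Trim30a was at least 16.5-fold lower, Oas2 at least 9.12-fold lower and Gbp4 and Ifi27l2a changed by -3.76 and -3.52, whereas the chemokine Cxcl10 changed by 2.75. Of 22 MHC class I presentation genes 11 fell and 7 rose. The immunoproteasome subunits Psmb9 and Psmb10 changed by -2.12 and -1.01 and the heavy chain H2-K1 by 0.50. Chemokines and cytokines rose in 22 of 37 cases and fell in 10, with a median of 1.05 as fitted and 0.75 with dim members at their bounds. Il1rl1, the IL-33 receptor, lay at 0.06 and 0.00 in the null cells and at 6.16 and 6.14 in the tumor line, a change of 6.12. Cxcl12, the niche chemokine of marrow stroma, moved from 6.80 and 6.75 to 2.27 and 2.38, a change of -4.46. Complement and acute phase genes fell in 13 of 22 cases, with C2 at -6.52, haptoglobin, Hp, at -6.63 and the C1 inhibitor Serping1 at -5.97. Of 24 AP-1, Myc and immediate early genes 9 rose and 11 fell, with Myc at 2.05, Egr2 at -3.91 and Klf4 at -2.36.

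Surface markers of stem cells did not move as a block, with 11 of 24 higher (45.8%), 10 lower (41.7%) and a median of -0.01. Over all autosomal genes the shares were 34.2% and 35.5%. Cd34 lay at 0.95 and 0.85 against 5.66 and 5.65 in the tumor line, a change of 4.76, and the adhesion molecule Alcam changed by 4.48 and nestin, Nes, by 3.64. The TGF-beta co-receptor endoglin, Eng, changed by -5.25. Among genes of the epithelial-mesenchymal list 16 of 29 fell and 6 rose: T-cadherin, Cdh13, was at least 575-fold lower by the probe used, E-cadherin, Cdh1, at least 8.47-fold lower, and the mesenchymal factor Zeb1 changed by 0.77. The other probe of Cdh13 gave a change of -3.0. Changes in this list ran from -10.63 to 3.63, so Zeb1 was not its highest member. The tight junction gene Tjp1 was 1.66-fold higher. Of the semaphorin, ephrin and Slit list 17 of 33 fell and 12 rose, with Sema7a at 5.77, Efna1 at 4.63 and Sema3b at -4.06.

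HoxB genes set the tumor line apart from both marrow groups. Hox genes keep a record of body position in stromal cells, and of 34 measured 13 rose and 7 fell. Those are shares of 38.2% and 20.6%, beside 34.2% and 35.5% of all autosomal genes tested. Hoxb7 was dim in wild-type and null BM-MSC, lay at 2.68 and 2.73 in wild-type ASC and at 2.33 and 2.31 in null ASC, and at 1.15 and 1.37 in the tumor line. It was at least 91.7-fold higher there than in null BM-MSC (adjusted p = 4.7e-08). The tumor line also lay between the marrow groups and the ASC groups for its neighbours: Hoxb8 was at least 16.2-fold higher, Hoxb5 at least 8.69-fold higher and Hoxb4 changed by 4.90. The HoxB genes were picked after their values were seen, and being bright in any group was enough to be measured. Over all autosomal genes tested, 90.9% were bright in wild-type ASC, 88.1% in null ASC and 90.7% in wild-type BM-MSC. Of the 8 HoxB genes measured, 8 were bright on both arrays of each ASC group, 3 in wild-type BM-MSC, 6 in the tumor line and 2 in null BM-MSC. The exceptions Hoxb2 and Hoxb9 were bright in both ASC groups and dim in the tumor line. Hoxd10 was at least 28.0-fold higher, and the posterior HoxC genes Hoxc13 and Hoxc11 were lower, the first by at least 9.27-fold and the second with a change of -2.82.

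**Figure D4:**
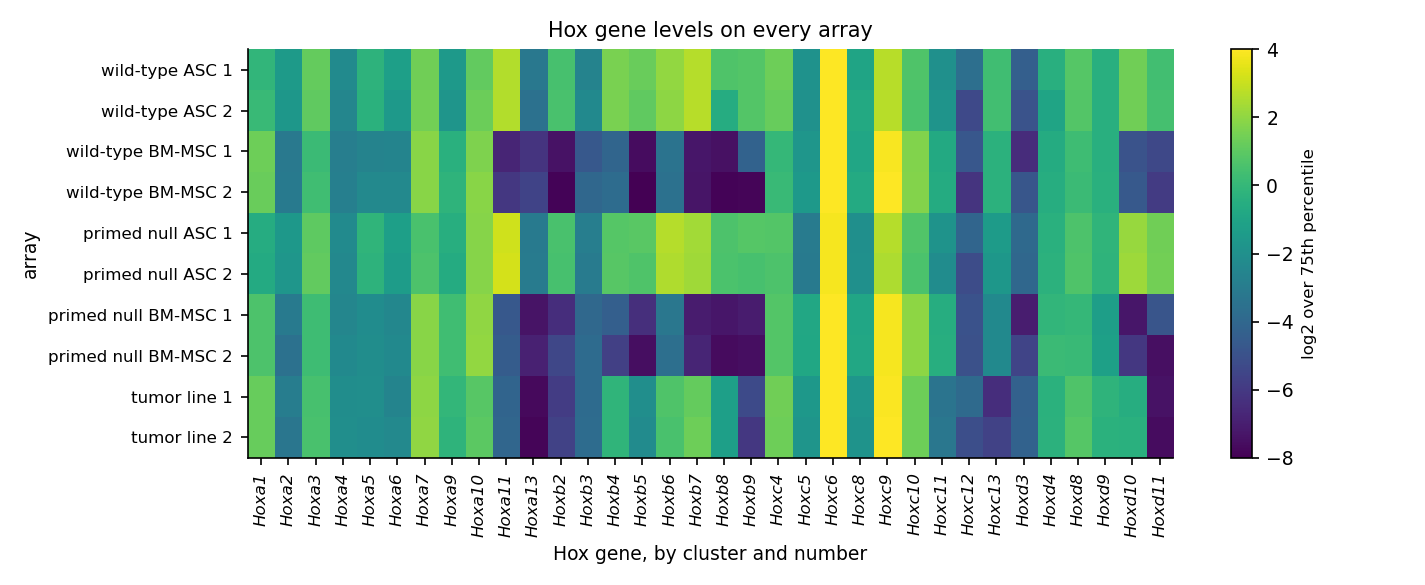
Level of the 34 Hox genes measured on each of the 10 arrays, in log2 over the array's 75th percentile (colour), ordered by cluster and number. Hoxb4 to Hoxb8 are lower in both BM-MSC groups than in the ASC groups and the tumor line, with Hoxb7 at 1.15 and 1.37 in the tumor line.

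Limb and positional factors outside the Hox clusters rose in 13 of 40 cases and fell in 19. Lhx8, already described, and Alx1, a craniofacial homeobox gene at least 26.3-fold higher, were dim in both marrow groups. Alx1 was dim in both ASC groups too, so that the tumor line alone of the 5 groups showed it. It was measured only because the tumor line was bright for it. Other positional genes fell: Foxd1, dim in both ASC groups, lay at 0.13 and 0.31 in null BM-MSC and at -4.14 and -4.25 in the tumor line, a change of -4.41, and Irx3 changed by -4.55. Prrx2, a limb mesenchyme factor, lay at 6.38 and 6.35 against 3.1 and 3.03.

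The direction of change differed by chromosome. Relative to the median of all autosomal genes, the median change on chromosome 3 was 0.75 over 1139 genes, and 60.1% of them were higher and 15.5% lower. The value lay between 0.73 and 0.80 in the 4 pairings of a tumor line array with a null array, and all 16 windows of 10 Mb with at least 20 genes were above 0, from 0.41 to 1.17. On chromosome 2 the median was -0.37 over 1685 genes, with 17.7% higher and 53.1% lower, and 17 of 18 windows below 0. Chromosomes 10 and 9 had medians of -0.35 and -0.28, each with 12 of 13 windows below 0. Chromosome 19 had all 7 windows below 0, and chromosome 4, with a median of 0.24, had 14 of 15 above. Chromosome 11 had a median of 0.29, and the lowest and highest values of the 15 chromosomes other than 2, 3, 9 and 10 were -0.18 (chromosome 19) and 0.29.

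The sizes depended on the processing. Genes bright on all 4 arrays gave 0.72 for chromosome 3 and -0.38 for chromosome 2, normexp background correction 0.51 and -0.22, no filter on dim genes 0.46 and -0.07, and the authors' values 0.67 and -0.33. For chromosomes 9 and 10 no filter gave -0.06 and -0.07. Each of chromosomes 2, 3, 4, 9, 10, 11 and 19 kept its sign in all 16 alternatives. Some of the 16 could not move these values: median scaling, a replicate block, another prior and a fit of only the 4 arrays. Within chromosomes 1 and 8 windows ran from -0.49 to 0.78 and from -0.30 to 0.84. Of the 11 S100 genes measured 10 lie on chromosome 3, where 7 rose and 1 fell: S100a3 changed by 2.58, S100a1 by 0.96 and S100a6 by 0.74, and S100a16 by -3.45. The osteocalcin genes lie on the same chromosome and fell, as do Mgst2, Prss12 and Lhx8, which rose.

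**Figure D5:**
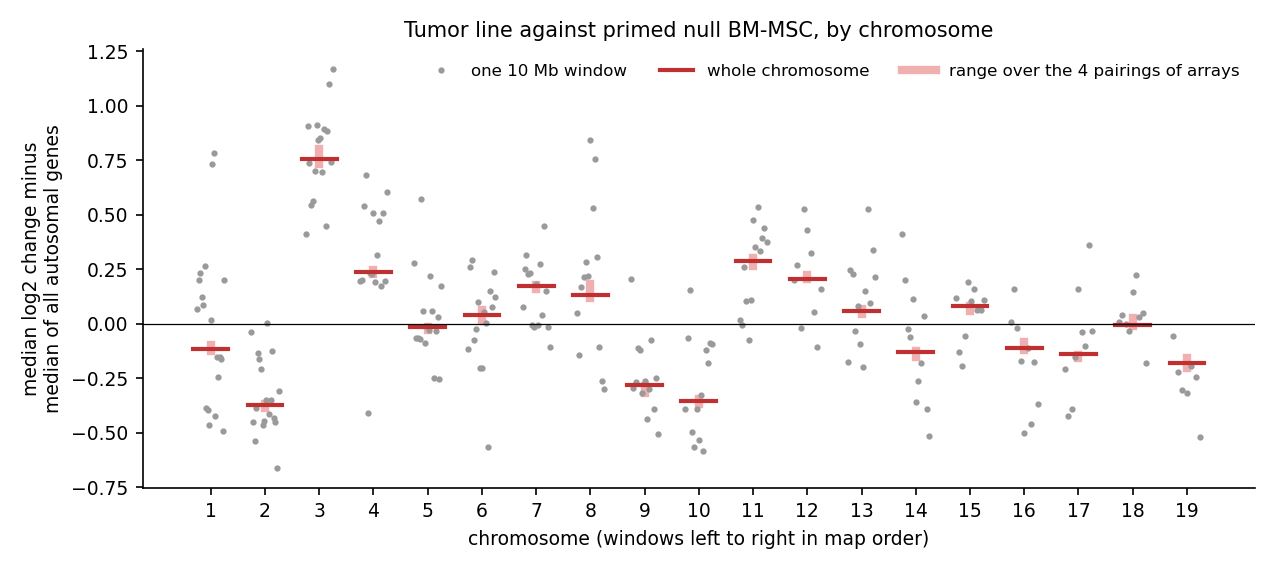
Median log2 change of each autosome (red bars) less the median of all autosomal genes, the range over the 4 pairings of arrays (pink) and the medians of 10 Mb windows with at least 20 genes (grey, in map order). Chromosome 3 stands at 0.75 with all 16 windows above 0, chromosome 19 has all 7 below 0, and chromosomes 2, 9 and 10 have 17 of 18, 12 of 13 and 12 of 13 below 0.

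Markers of cell types other than stroma were read beside these results. Of 18 macrophage and myeloid markers measured 11 rose and 4 fell. The complement gene C1qa and the signalling adaptor Tyrobp, dim in the 4 other groups, were at least 6.63-fold and 10.0-fold higher in the tumor line, and lysozyme, Lyz2, at least 11-fold higher. The pan-leukocyte gene Ptprc and the macrophage gene Adgre1 did not pass, though another Adgre1 probe gave 2.35. Csf1r changed by -0.76 and Itgam by -1.43, with another Itgam probe at 0.19. The summed signal of the list was 15.2 to 16.2 times the array's 75th percentile in the tumor line and 23.9 to 24.9 in null BM-MSC, against 17.4 to 34.8 over the 6 arrays of the other groups. No myeloid marker was dim on both tumor line arrays, and 6 were so in null BM-MSC. C1qa, Tyrobp, C1qc and Laptm5 were dim in every other group, so they were measured only because the tumor line was bright for them. The part of such cells in the higher chemokine genes was not tested.

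The other marker lists were smaller. Of 7 endothelial markers 2 rose and none fell, with summed signals of 9.20 to 10.2 in the tumor line and 9.09 to 9.55 in the null cells. Lymphoid and erythroid markers rose in 3 of 7 cases, alpha-globin Hba-a1 by 3.98, and their sum was 4.39 to 4.59 against 1.99 to 2.01. Skeletal muscle markers fell in 5 of 7 cases, with Tnnt3 at -3.26, and the myosin gene Myh1, dim in the null cells, was at least 6.68-fold higher. Their sum was 0.65 to 0.71 in the tumor line and 2.10 to 2.35 in the null cells. Neural and Schwann markers rose in 5 of 10 cases and fell in 4, with sums of 51.7 to 54.5 against 102 to 104. Without S100b, which fell by 10.32, the sums of the other 9 were 51.6 to 54.5 in the tumor line and 42.2 to 42.5 in the null cells. Keratinocyte and skin markers fell in 4 of 8 cases and rose in 1, and their sums were 4.78 to 5.42 against 6.44 to 6.75. The keratinocyte marker that rose, Krt10, was 1.21-fold higher, and Ncam1, counted as higher among the neural markers, 1.93-fold. Both reversed when the probes of a gene were averaged.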

How the data were processed

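Total RNA was labelled with Cy3 and hybridised to 10 Agilent arrays, 1 per culture. Spot signals are deposited as intensity, background-subtracted, from Feature Extraction 10.7.3.1 with mm9 probe positions per the file headers. The deposited series matrix holds log2 values, and limma is named in the submitters' processing notes; its normalization is not stated there. From the scanner files, control and outlier spots were left out, log2 processed signals of a probe averaged and each array's 75th percentile subtracted. Of 55681 probes 37 were dropped. Each gene was read from its brightest probe by mean level, and 22596 genes detected on each array of 1 group or more were tested, 21528 of them autosomal. limma 3.58.1 (R 4.3.3) fitted the 5 groups together with 5 residual and 1.35 prior degrees of freedom, two-sided, with Benjamini-Hochberg adjustment over 22596 genes and a threshold of 0.05. The fit was tested on simulated data.

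A fold "at least N" sets the bright group's mean against the higher of the dim probe's signal and the array's lowest signal among probes well above background. Named genes were Rb1 and Trp53, the 10 largest measured rises and falls, 6 bounds a direction, and up to 4 changed members a list and direction; others were chosen after their values were seen. Members and the 43 lists were chosen with earlier results of these data known. The number of arrays limits the precision. Genes on X (841), Y (13) or with no placement (214) were fitted and not described, apart from 2 Y genes and Xist. Chromosome values are medians of a chromosome's changes less that of all autosomal genes, with windows of 10 Mb holding at least 20 genes. Alternatives covered background, scaling, filter, probe choice, the authors' values, the model and each array.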

Additional observations from a re-analysis of the deposited data

How the results depend on the processing

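The total of 15000 called genes ranged from 12946 (genes well above background on all 10 arrays) to 15370 (trend and robust prior), and from 13417 to 13952 with 1 array left out. Median scaling moved the median change from -0.06 to 0.05 and the higher share of calls from 49.0% to 55.3%, with 13881 called. The same replicate numbers did not pair the cultures (r = -0.03 over 22596 genes), and a replicate block gave 14843 called genes. A slide block could not be fitted. Chromosome medians moved by more than the spread of the array pairings in 98 cases and by less in 206. The 206 include all 19 with median scaling, with a replicate block, with the trend and robust prior and with only the 4 arrays. Those settings cannot move a chromosome median taken less that of all autosomal genes. The medians moved in 17 of 19 with normexp background, 17 of 19 with no filter and 12 of 19 with the authors' values. Of 314 named genes, only 209 could be compared with all 10 arrays above background, and 233 with the 4 compared arrays above it. With only the 4 arrays, a replicate block or the trend and robust prior, the change stays the same and only the call can differ. Over the alternatives, 4781 values of named genes kept direction and side of the threshold, 55 lost the call and 2 reversed: when probes of a gene were averaged, Ncam1 changed by -0.24 and Krt10 by -0.95. For each of these 2 genes, at least 1 other probe thus changed in the opposite direction to the probe used. Why the probes differ was not tested.

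The autosomal genes called with a log2 change of at least 1 numbered 6248, but 3860 with normexp background and 4125 with all 10 arrays above background. Testing only genes above background on all 10 arrays leaves fewer members: lower counts were 9 for bone matrix, 6 for chondrogenic, 18 for Wnt, 7 for IGF and imprinted and 9 for epithelial-mesenchymal genes. Higher counts there were 1 for chondrogenic, 2 for proteases, 5 for Wnt, 2 for Hedgehog, 3 for complement, 8 for Hox, 8 for limb and 7 for semaphorin genes. With the 4 compared arrays above background, chondrogenic genes had 2 higher and 8 lower, proteases 2 higher, IGF 7 lower, Hox 8 higher and epithelial-mesenchymal 9 lower. Lower mitosis genes numbered 2 with only the 4 arrays, 2 with the robust prior and 0 with mean probes. Collagens had 4 higher and DNA repair 2 lower with mean probes, and median scaling left 1 lower CDK inhibitor and 1 lower DNA repair gene. Leaving out 1 array gave 7 to 14 higher interferon genes and 2 to 4 lower DNA repair genes; 14 and 2 came without null BM-MSC replicate 2.

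Signals near background limit the folds of dim genes, and 124 called genes were dim in both groups. Duplicates are cultures of 1 line, and slide and group cannot be told apart.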
